A study of Mus musculus with 4 samples.

Results

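The genes described here are 29 genes of cholesterol handling: enzymes that make cholesterol, the proteins that control the transcription factor SREBP2, and genes of sterol uptake, movement, storage and export. They were chosen by name as members of this pathway, with earlier results of these data known. Their GENCODE symbols matched 29 of the 37315 gene identifiers in the count files. All 29 passed the filter on low counts, and no member had fewer than 125 reads in a library. Liver RNA came from C57BL/6 mice of 23 weeks, as 2 wild-type (WT) libraries and 2 libraries from Fto knockout (KO) mice, and the comparison asks which transcripts differ between the genotypes. Fto encodes an enzyme that demethylates adenosines in RNA. The labels do not give the allele, whether the knockout was confined to the liver, or whether the libraries of a genotype stem from different animals. The p-values therefore rest on a spread between libraries that may be technical.

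Cholesterol is built from acetyl-CoA, first into mevalonate and the isoprenoid farnesyl diphosphate, then into squalene, which is oxidised and folded into lanosterol, and lanosterol is trimmed and reduced to cholesterol. The liver is a main site of this synthesis. When sterols in the membrane of the endoplasmic reticulum fall, the escort protein SCAP carries SREBP2 to the Golgi, where proteases release the part that enters the nucleus and activates genes of synthesis and uptake. When sterols are ample, the INSIG proteins hold SCAP back. Oxysterols activate the LXR receptors, which raise genes of sterol export.

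The libraries held 41332870 and 39549592 counts in WT and 44689114 and 40947808 in KO. Levels are given as CPM, the reads of a gene per 1000000 counts after TMM scaling of library sizes, and 1 read corresponded to between 0.0216 and 0.0263 CPM. Fto stood at 41.2 and 33.9 CPM in WT replicates 1 and 2 and at 13.1 and 12.1 CPM in KO. Its log2 fold change was -1.57 (adjusted p = 0.0109 in the edgeR quasi-likelihood test). Of 10 hepatocyte markers none was called, and their summed level was between 88120 and 103300 CPM in WT and between 98250 and 114700 CPM in KO. Most of that sum was Alb, at 53500 and 64830 CPM in WT and at 58250 and 70110 CPM in KO. Both KO libraries were above both WT libraries for 3 of the 10 and below them for 1, against 21.6% and 20.4% of all tested genes. All 10 markers of Kupffer cells, the liver macrophages, were higher in both KO libraries than in both WT libraries, as were 21.6% of all tested genes. The summed level of the 10 markers was 159.7 and 238.9 CPM in WT and 345.6 and 372.0 CPM in KO. Marco and Csf1r were the 2 called among the 10, where 1.91% of all tested genes were called. Csf1r lay near the threshold (log2 fold change 0.97, adjusted p = 0.0478, edgeR). With library size alone in place of TMM scaling it did not pass (adjusted p = 0.0738, edgeR). None of the 10 was at 0 in a library. None of the tested markers of endothelial, stellate, bile duct, fat or blood cells was called. All 7 stellate markers had a negative log2 fold change (median -0.39), and 4 had both KO libraries below both WT libraries, as did 20.4% of all tested genes. Both KO libraries were also below both WT libraries for the endothelial marker Lyve1 (-1.4) and the globin genes Hbb-bs (-0.8) and Hba-a1 (-0.71). The same held for the lipid droplet gene Cidec on the fat cell list (-2.15, with 27.2 and 58.3 CPM in WT and 5.80 and 13.5 CPM in KO). In all, it held for 1 of 7 tested endothelial, 2 of 5 fat cell and 3 of 6 blood markers. The list medians were -0.01, -0.27 and -0.31. The 6 other endothelial markers overlapped. The blood markers S100a8 (1.77) and S100a9 (0.88) had both KO libraries above both WT libraries. The part of these cells in the values below was not tested. In bulk tissue, fewer cells of a type and less RNA per cell cannot be told apart.

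Across the 29 genes, 1 was called higher in KO, the squalene epoxidase gene Sqle, and 1 lower, the SCAP anchor gene Insig2, at an adjusted p under 0.05 over all 13836 tested genes. Of all tested genes 1.91% were called, 0.961% higher and 0.947% lower. The remaining 27 members did not pass. Of the 29, 22 had a positive log2 fold change (KO over WT), against 50.8% of all tested genes, and the median was 0.17, against 0.006 over all tested genes. Both KO libraries lay above both WT libraries for 13 members (44.8%), against 21.6% of all tested genes, and below them for 2, against 20.4%. At an unadjusted p under 0.05 there were 6 higher members, Idi1, Fdps, Sqle, Lss, Cyp51 and Stard4 (20.7%, against 6.53% of all tested genes), and 1 lower, Insig2, against 6.48%. These shares are descriptions without a test, for members chosen with earlier results of these data known.

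**Figure D1:**
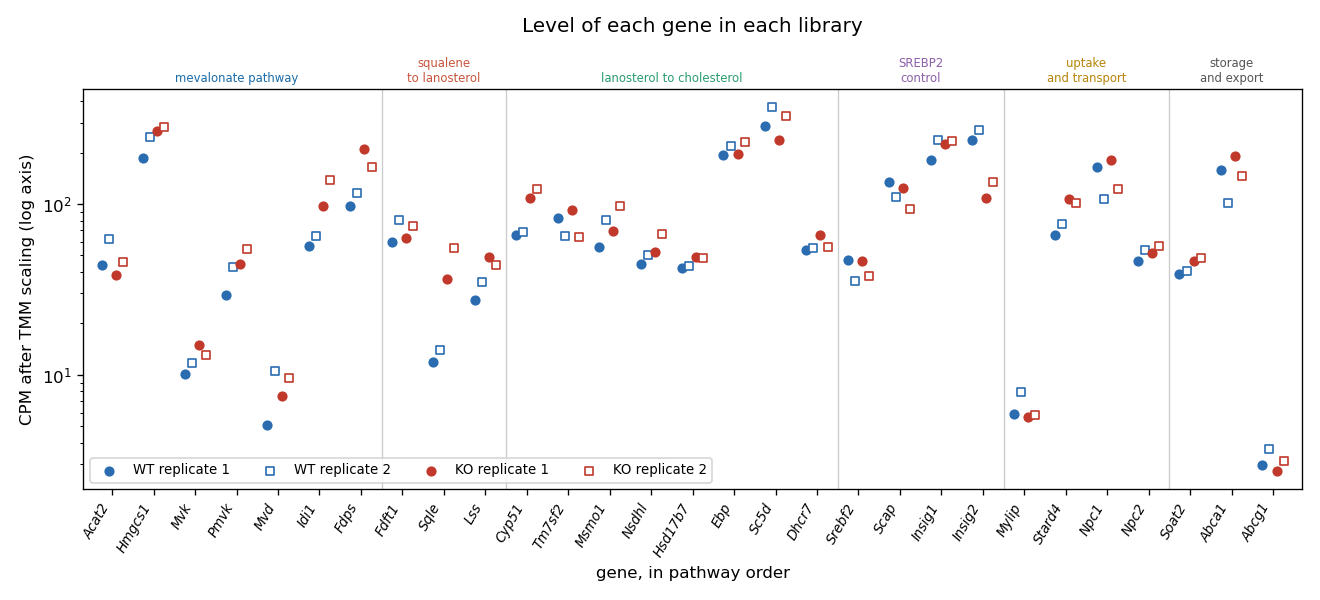
Level of each of the 29 genes in each library, in CPM after TMM scaling on a log axis, with genes in pathway order; blue points are WT, red points KO, filled circles replicate 1 and open squares replicate 2. Sqle shows both KO libraries far above both WT libraries and Insig2 both KO libraries below, while Srebf2 and Ebp overlap.

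RefSeq promoter windows, from 250 bases before to 50 bases after an annotated start (build GRCm38.p6), were found for 22 of the 29 genes, and none was found for Fdps, Fdft1, Sqle, Stard4, Npc1, Soat2 and Abcg1. The windows were searched on both strands for a form of the sterol regulatory element to which SREBP2 binds (TCACNCCAC) and for the CCAAT box, bound by the factor NF-Y, which acts beside SREBPs at many sterol genes. Stretches ending at the base before the start are shown for the 1 member that holds the first motif, Hmgcs1, and, chosen with their values known, for Idi1 and Cyp51, which had the smallest p among the members above WT that were not called, and for Insig2, the gene that was lower. Capitals mark TCACNCCAC and CCAAT or its reverse complement. The Hmgcs1 stretch is chr13:119690204-119690350 on the plus strand, Idi1 chr13:8885506-8885605 on the plus strand, Cyp51 chr5:4104698-4104797 on the minus strand, and Insig2 chr1:121332590-121332735 on the minus strand, before the most upstream of its 3 annotated starts.
Hmgcs1: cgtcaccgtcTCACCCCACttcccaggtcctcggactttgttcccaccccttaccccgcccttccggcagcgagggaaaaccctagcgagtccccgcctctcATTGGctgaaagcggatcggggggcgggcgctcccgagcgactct
Idi1: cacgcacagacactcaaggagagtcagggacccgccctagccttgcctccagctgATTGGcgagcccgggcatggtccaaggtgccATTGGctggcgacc
Cyp51: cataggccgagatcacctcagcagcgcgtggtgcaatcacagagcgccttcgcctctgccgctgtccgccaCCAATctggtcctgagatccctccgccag
Insig2: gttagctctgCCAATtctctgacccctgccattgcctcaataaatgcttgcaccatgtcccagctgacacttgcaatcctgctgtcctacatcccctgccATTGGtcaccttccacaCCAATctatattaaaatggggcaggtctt
TCACNCCAC occurred in the windows of 1 of the 22 members (4.55%), Hmgcs1, where its first base lies 137 bases before the start. It occurred in 1.43% of the 10403 tested genes that have a window, and in 1.24% of all 32851 windows. CCAAT occurred in 19 of the 22 (86.4%), in 42.7% of the 10403 tested genes that have a window, and in 37.4% of all windows. The 3 without it were Acat2, Scap and Abca1. CCAAT was present for Insig2, which was lower in KO, as well as for Idi1 and Cyp51, which were above WT. For Insig2 it lay only in the window of the most upstream of its 3 starts, the one shown. The DR4 repeat, a form of the site for LXR with no mismatch allowed, was in no member's window and in 5 of all windows. These are matches of letters, not measured binding.

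The mevalonate pathway, from acetyl-CoA to farnesyl diphosphate, was represented by 7 genes. None was called, 6 had a positive log2 fold change, and the median was 0.37. The largest difference was in Idi1, which encodes the isomerase that interconverts the isoprenoid units isopentenyl and dimethylallyl diphosphate. Idi1 stood at 57.0 and 64.6 CPM in WT replicates 1 and 2 and at 97.6 and 138.5 CPM in KO. Both KO libraries were above both WT libraries, KO replicate 2 the most (log2 fold change 0.96, SE 0.218, adjusted p = 0.0823, edgeR). Between the libraries numbered 1 the log2 ratio of KO over WT was 0.77, and between those numbered 2 it was 1.10.

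Fdps, which encodes the synthase of farnesyl diphosphate, the branch point to sterols, dolichol and prenylated proteins, stood at 96.8 and 116.3 CPM in WT and at 210.0 and 164.2 CPM in KO. Here KO replicate 1 was the higher of the KO libraries, and the groups did not overlap (log2 fold change 0.81, SE 0.201, adjusted p = 0.108, edgeR). The ratio was larger within number 1 (1.12 on the log2 scale) than within number 2 (0.50). Of the exonic bases of Fdps, 26.71% are shared with the annotated gene Gm43738 on the same strand, the largest share among the members.

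Hmgcs1 encodes the cytosolic HMG-CoA synthase, the second step from acetyl-CoA. It stood at 186.2 and 248.1 CPM in WT and at 269.0 and 281.7 CPM in KO, with no overlap between the groups, although the WT libraries lay farther apart than the higher WT library lay from the lower KO library. Its log2 fold change was 0.34 (SE 0.196, adjusted p = 0.541, edgeR), with 0.53 within number 1 and 0.18 within number 2. The kinase genes Mvk and Pmvk, which phosphorylate mevalonate in successive steps, had log2 fold changes of 0.37 (SE 0.197) and 0.46 (SE 0.235). Mvk was at 10.1 and 11.7 CPM in WT and at 14.99 and 13.04 CPM in KO. Pmvk was at 29.2 and 42.9 CPM in WT and at 44.4 and 54.9 CPM in KO. Both KO libraries were above both WT libraries for each kinase, by a small margin for Pmvk.

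Mvd, the decarboxylase that follows the kinases, differed between numbers. Its levels were 5.09 and 10.5 CPM in WT and 7.48 and 9.57 CPM in KO, so that both KO libraries lay between the WT libraries. On the log2 scale its ratio was 0.56 within number 1 and -0.13 within number 2. Acat2, the cytosolic thiolase that joins a pair of acetyl-CoA units at the start of the pathway, was the only gene of this step with a negative log2 fold change (-0.33, SE 0.223, adjusted p = 0.624, edgeR). It was at 43.9 and 62.2 CPM in WT and at 38.5 and 45.9 CPM in KO, with overlap. The mouse genome holds a close paralog of Acat2, and reads that match both genes may have been dropped, so its level is uncertain.

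Sqle encodes squalene epoxidase, which adds oxygen to squalene, an early rate-limiting step of the sterol branch (chromosome 15, 59315077 to 59331192, plus strand, mm10). It stood at 11.9 and 14.0 CPM in WT and at 36.3 and 55.5 CPM in KO, from 504 and 533 reads against 1679 and 2220. The lower KO library was well above the higher WT library, and the KO libraries differed from each other more than the WT libraries did. The mean level was 12.9 ± 1.497 CPM in WT (SD, n = 2) and 45.9 ± 13.6 CPM in KO (SD, n = 2). The fitted rise was 3.55-fold, or 1.83 on the log2 scale (SE 0.249, adjusted p = 0.0144, edgeR). The libraries numbered 1 gave a log2 ratio of 1.61 and those numbered 2 one of 1.99. Sqle was called in all 10 alternatives tried, with log2 fold changes from 1.48 to 2.1.

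The neighbours of Sqle on either side of its reaction did not pass. Fdft1, the squalene synthase that supplies its substrate, was at 60.3 and 80.2 CPM in WT and at 62.9 and 74.2 CPM in KO. Both KO libraries lay between the WT libraries (log2 fold change -0.034, SE 0.208, adjusted p = 0.978, edgeR). Lss, the cyclase that folds the epoxide into lanosterol, was at 27.5 and 34.7 CPM in WT and at 49.1 and 44.1 CPM in KO. Its groups did not overlap, and its log2 fold change was 0.58 (SE 0.196, adjusted p = 0.248, edgeR), with 0.83 within number 1 and 0.35 within number 2.

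**Figure D2:**
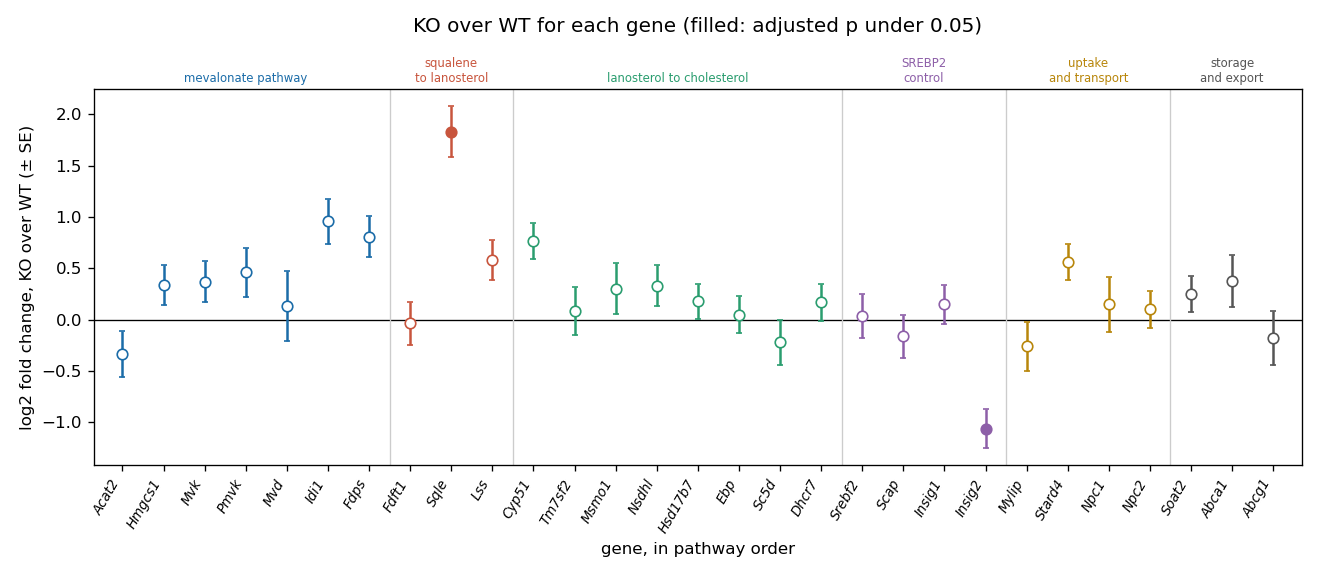
Log2 fold change of KO over WT for each gene in pathway order, with bars of 1 SE from the edgeR quasi-likelihood fit to 2 libraries per genotype; filled points passed an adjusted p under 0.05. Sqle (1.83) and Insig2 (-1.06) are the filled points, and Idi1, Fdps and Cyp51 are the next farthest above 0.

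Of 8 genes that turn lanosterol into cholesterol, none was called, 7 had a positive log2 fold change, and the median was 0.18. Cyp51, the P450 enzyme that removes the first methyl group of lanosterol, had the largest value. It was at 65.8 and 68.8 CPM in WT and at 108.0 and 122.3 CPM in KO. The libraries of each genotype were close to each other and the groups were well apart, with a value of 0.77 (SE 0.175, adjusted p = 0.081, edgeR) and ratios of 0.71 within number 1 and 0.83 within number 2.

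The genes of the steps after Cyp51 had smaller values. The C14 reductase gene Tm7sf2 had a log2 fold change of 0.084 (SE 0.235), and its groups overlapped, with replicate 2 below replicate 1 in both genotypes. Msmo1 and Nsdhl, which remove the C4 methyl groups as oxidase and dehydrogenase, had 0.30 (SE 0.248) and 0.33 (SE 0.198). Nsdhl was at 44.6 and 50.4 CPM in WT and at 52.3 and 67.1 CPM in KO, without overlap. The ketoreductase gene of the same complex, Hsd17b7, had the closest agreement within each genotype of all members. It was at 42.5 and 43.5 CPM in WT and at 49.0 and 48.5 CPM in KO. Its groups did not overlap, although the difference was small, at 0.18 on the log2 scale (SE 0.170, adjusted p = 0.751, edgeR).

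The last enzymes of the pathway were not called either. Ebp, the isomerase that moves the ring double bond, had a log2 fold change of 0.05 (SE 0.181), with 192.5 and 218.0 CPM in WT and 195.1 and 229.9 CPM in KO. Sc5d, the desaturase that acts after it, had -0.22 (SE 0.221, adjusted p = 0.773, edgeR) and was the only gene between lanosterol and cholesterol with a negative value. It was at 286.2 and 368.6 CPM in WT and at 237.1 and 325.5 CPM in KO, with overlap. Dhcr7, the reductase that makes cholesterol from 7-dehydrocholesterol, had 0.17 (SE 0.181), and KO replicate 2 at 56.1 CPM lay close to WT replicate 2 at 55.3 CPM.

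Over all 18 enzymes of synthesis, 15 had a positive log2 fold change and 11 had both KO libraries above both WT libraries (61.1%, against 21.6% of all tested genes). The summed level of the 18 was 1352 and 1635 CPM in WT and 1700 and 1893 CPM in KO. The gap between the higher WT and the lower KO library was thus smaller than the gap between the WT libraries. The median log2 ratio of KO over WT was 0.43 within number 1 and 0.17 within number 2, where the medians over all tested genes were 0.019 and 0.002. The enzymes also differed within a genotype: 17 of 18 were higher in WT replicate 2 than in WT replicate 1, with a median log2 ratio of 0.25, against 0.024 over all tested genes. In KO 12 of 18 were higher in replicate 2, with a median of 0.24. Markers of other cells moved between replicates as well. Fat cell markers had a median log2 ratio of replicate 2 over replicate 1 of 4.06 in WT and 2.87 in KO, with 1, 70, 0 and 71 reads of Adipoq and 0, 41, 0 and 36 reads of Lep in WT replicates 1 and 2 and KO replicates 1 and 2. In WT the medians were 0.59 for Kupffer cell, 0.61 for endothelial and 0.51 for stellate markers, and in KO 0.14, -0.29 and -0.18. The part of these cells in the difference between replicates was not tested. The enzymes moved together between WT libraries by an amount near the median difference between genotypes (0.32), and they are not independent observations.

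**Figure D3:**
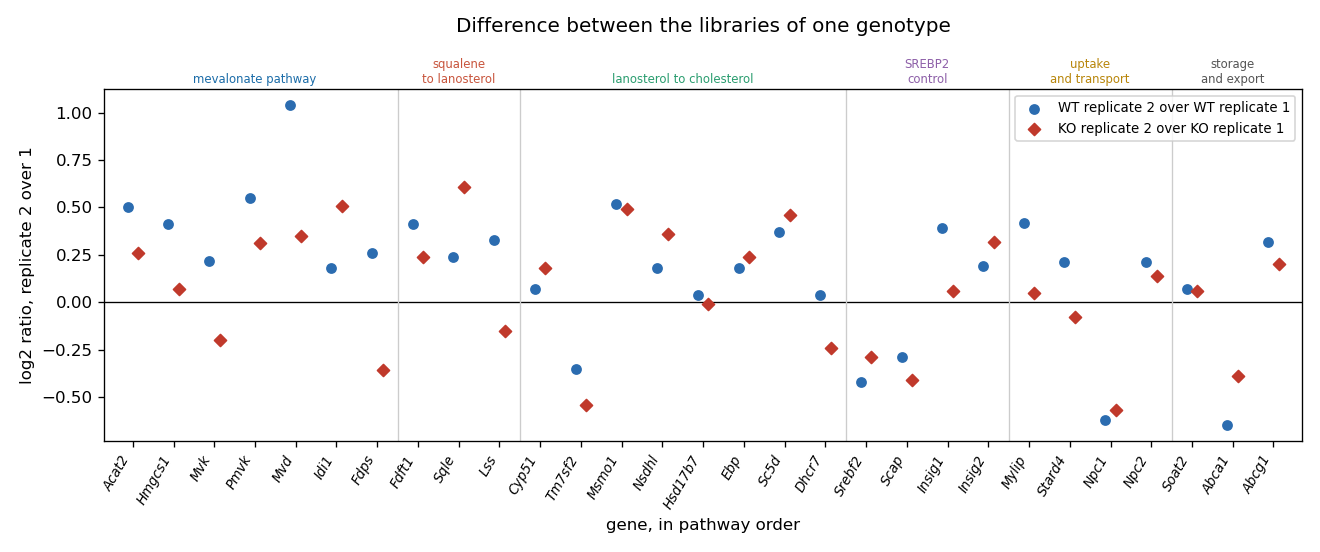
Log2 ratio of replicate 2 over replicate 1 for each gene in pathway order, in WT (blue circles) and in KO (red diamonds), from CPM after TMM scaling. Nearly all enzymes lie above 0 in WT, while the enzyme gene Tm7sf2 lies below 0 in both genotypes, as do Srebf2, Scap, Npc1 and Abca1.

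Transcript length moved with the difference between replicates as well. Among tested genes with a longest transcript over 8000 bases, replicate 2 was lower than replicate 1, with median log2 ratios of -0.49 in WT and -0.45 in KO. Abca1, the only member in that class, had -0.65 and -0.39. In the class from 4000 to 8000 bases, which held 9 members, the medians were -0.17 in WT and -0.16 in KO. From 2000 to 4000 bases, with 16 members, they were 0.08 and 0.06, and under 2000 bases, with 3 members, 0.25 and 0.14. The median log2 fold change of KO over WT was between -0.06 and 0.10 in the 4 length classes. The part of length in the members' values was not tested.

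Among the 4 genes that control SREBP2, Insig2 was the only one that passed. INSIG2 is an anchor protein of the endoplasmic reticulum that binds SCAP when sterols are ample and keeps SREBP2 from being processed (the gene lies on chromosome 1, 121304353 to 121332589, minus strand, mm10). It was at 236.0 and 269.6 CPM in WT and at 107.9 and 134.5 CPM in KO. Both KO libraries were far below both WT libraries. Insig2 fell from 252.8 ± 23.8 to 121.2 ± 18.8 CPM (SD, n = 2 each). Its log2 fold change was -1.06 (SE 0.192, adjusted p = 0.0392, edgeR), with -1.13 within number 1 and -1.0 within number 2. Without KO replicate 1 it did not pass (log2 fold change -0.91, adjusted p = 0.0882), and it passed in the other 9 of 10 alternatives. The counts cover the whole gene, so transcripts from its 3 RefSeq starts cannot be told apart.

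Insig1, the paralog with the same function and itself a target of SREBP2, differed by 0.15 on the log2 scale (SE 0.192, adjusted p = 0.839, edgeR). It was at 180.0 and 235.5 CPM in WT and at 225.9 and 234.9 CPM in KO. Both KO libraries lay between the WT libraries, which were the pair farther apart. Srebf2, the gene of SREBP2, was at 47.3 and 35.3 CPM in WT and at 46.6 and 38.1 CPM in KO, with a log2 fold change of 0.038 (SE 0.215). Scap had -0.16 (SE 0.208), and its groups overlapped. For Srebf2 and Scap, replicate 2 was below replicate 1 in both genotypes, by log2 ratios from -0.29 to -0.42. The counts measure transcripts and not the processing of the SREBP2 protein.

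**Figure D4:**
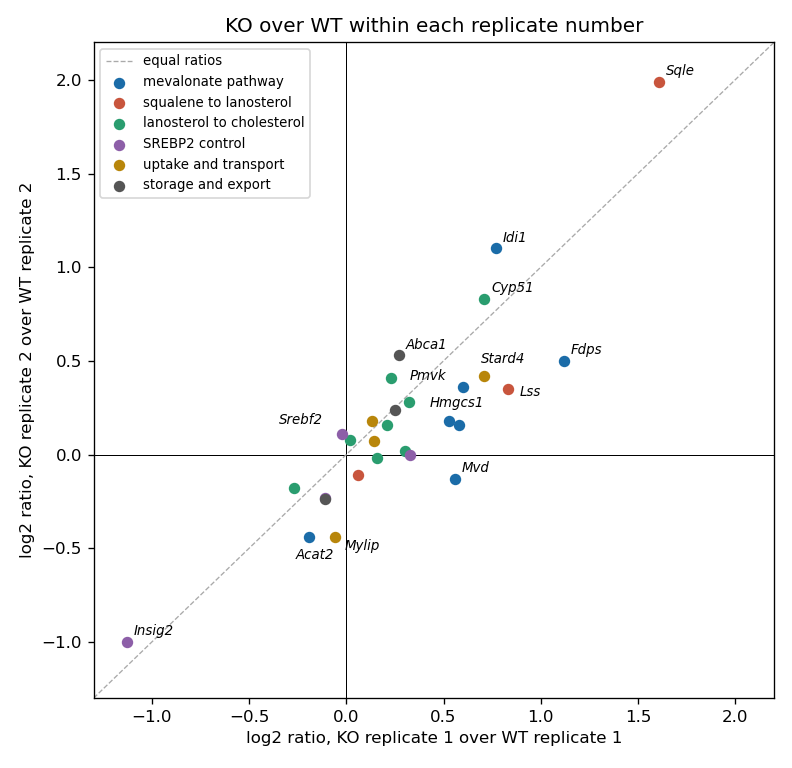
Log2 ratio of KO over WT between the libraries numbered 1 (horizontal axis) and between those numbered 2 (vertical axis) for each of the 29 genes, coloured by step; the dashed line marks equal ratios. Sqle and Insig2 lie at opposite ends, Sqle and Idi1 above the line with larger ratios within number 2, and Fdps, Lss, Hmgcs1 and Mvd below it with larger ratios within number 1.

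Of the genes of uptake and movement, none of 4 was called. Stard4, which encodes a soluble protein that carries cholesterol between membranes and is a target of SREBP2, had the largest value. It was at 65.5 and 75.9 CPM in WT and at 107.0 and 101.6 CPM in KO. The groups were apart (log2 fold change 0.56, SE 0.178, adjusted p = 0.216, edgeR), with 0.71 within number 1 and 0.42 within number 2. Mylip, a ubiquitin ligase that sends lipoprotein receptors to the lysosome and is a target of LXR, was at 5.87 and 7.88 CPM in WT and at 5.62 and 5.82 CPM in KO. Both KO libraries were below both WT libraries, the higher of them by a narrow margin (log2 fold change -0.26, SE 0.235, adjusted p = 0.73, edgeR). Npc1 and Npc2, the membrane and soluble proteins that pass cholesterol out of lysosomes, had log2 fold changes of 0.15 (SE 0.270) and 0.10 (SE 0.181). Npc1 was at 165.5 and 107.5 CPM in WT and at 180.8 and 122.0 CPM in KO, so the replicate number separated its libraries more than the genotype did.

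The 3 genes of storage and export were not called either. Soat2, the acyltransferase that makes cholesteryl esters in hepatocytes, was at 38.7 and 40.7 CPM in WT and at 46.1 and 48.2 CPM in KO. Its groups did not overlap, and the ratios within the numbers, 0.25 and 0.24, were nearly equal (log2 fold change 0.25, SE 0.172, adjusted p = 0.633, edgeR). Abca1, the exporter that loads lipid onto apolipoprotein A-I and is a target of LXR, was at 158.3 and 101.1 CPM in WT and at 191.3 and 146.2 CPM in KO, with overlap (log2 fold change 0.38, SE 0.253). Abcg1, which exports sterol to lipoproteins and is also a target of LXR, was the lowest member, at 2.95 and 3.68 CPM in WT and at 2.73 and 3.12 CPM in KO. The 3 targets of LXR among the members thus had log2 fold changes of -0.26 (Mylip), 0.38 (Abca1) and -0.18 (Abcg1). Abca1, Abcg1 and Npc2 are also expressed by macrophages, and the Kupffer cell markers were higher in KO as given above. The part of those cells in the 3 values was not tested.

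The ratios within the numbers had the same sign for 24 of the 29 genes, where over all tested genes 69.6% had. The 5 others were Mvd, Fdft1, Tm7sf2, Srebf2 and Insig1, and each had a log2 fold change within 1 SE of 0. The log2 ratio within number 1 was larger than that within number 2 by more than 0.3 for 7 members, Hmgcs1, Mvk, Mvd, Fdps, Lss, Insig1 and Mylip. It was smaller by more than 0.3 for 2, Idi1 and Sqle.

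To compare genes with each other, levels were divided by the length of their exons, as CPM per kilobase. In WT the highest levels per kilobase were those of Ebp (88.9 ± 7.81), Insig2 (72.8 ± 6.84), Sc5d (67.3 ± 12.0), Insig1 (67.2 ± 12.7) and Hmgcs1 (47.3 ± 9.53, SD, n = 2 each). Insig2, Sc5d and Insig1 did not differ beyond the spread of their WT libraries, and the same 5 genes led when the longest transcript was used as the length. In KO, Insig2 stood at 34.9 ± 5.42 CPM per kilobase, below Hmgcs1 (59.9 ± 1.94) and Fdps (44.5 ± 7.70). The lowest levels per kilobase in WT were those of Lss (2.89 ± 0.471), Sqle (2.33 ± 0.270), Mylip (2.13 ± 0.440) and Abcg1 (0.454 ± 0.0708). Sqle, the lowest of the 18 enzymes in WT, reached 8.28 ± 2.44 CPM per kilobase in KO. Of the 28 neighbouring pairs in the WT order, 9 had WT libraries that did not overlap.

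Further genes around the pathway were read from 5 lists. Of 14 genes of SREBP processing and sterol sensing none was called, 12 had a positive log2 fold change, and the median was 0.18. The smallest p among them was that of Syvn1, a ubiquitin ligase of protein disposal in the endoplasmic reticulum (log2 fold change 0.43, SE 0.169, adjusted p = 0.331, edgeR), followed by the sterol-responsive ligase gene Rnf145 (0.38, SE 0.178). Of 12 genes of the isoprenoid branches, which make ubiquinone, dolichol and prenyl groups, none was called, 5 had a positive value, and the median was -0.02, with Pdss2 (-0.28) and Dhdds (0.18) first by p. Of 6 tested genes that pass electrons to or act beside the sterol enzymes none was called, and the median was -0.12, with Cyb5b at -0.29 and Por, the reductase that serves Cyp51 and Sqle, at 0.28.

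Of 7 genes of the LXR axis none was called and 3 had a positive value, with a median of -0.10. Abcg5 and Abcg8, which form the exporter of sterols into bile, had the smallest p, with log2 fold changes of -0.64 (SE 0.188, adjusted p = 0.177, edgeR) and -0.30 (SE 0.167). Abcg5 was at 84.3 and 102.2 CPM in WT and at 56.7 and 63.0 CPM in KO, without overlap. Of 16 tested genes of sterol movement none was called and 10 had a positive value, with a median of 0.04. Gramd1c, a carrier of sterol from the plasma membrane, had -0.53 (SE 0.181), and Lipa, the lysosomal lipase that frees cholesterol from its esters, had -0.47 (SE 0.168, adjusted p = 0.276, edgeR). Lipa was at 235.3 and 247.9 CPM in WT and at 167.6 and 180.1 CPM in KO, without overlap.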

How the data were processed

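Polyadenylated RNA of liver was sequenced as paired reads with the TruSeq v2 kit, per the labels' protocols. This kit keeps no strand information, so reads of overlapping genes on opposite strands cannot be told apart; 9 members have exons that overlap another gene. The deposited files hold raw counts of reads per Ensembl gene, made by the authors with TopHat2 2.1.1 and HTSeq 0.6.0 on mm10, per the submitters' processing notes; neither the annotation release nor the counting mode is given in the sources used here. Symbols and positions are from GENCODE M21, which matched 35449 of 37315 identifiers. Every pair of libraries differed by more than sampling noise (chi-square per degree of freedom at least 86.49), so none was treated as a copy of another; this does not show that they came from separate animals.

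KO was compared with WT with edgeR 4.0.16 in R 4.3.3: filterByExpr (minimum count 10, minimum total 15), TMM, robust quasi-likelihood F test, two-sided, genotype as the only term, Benjamini-Hochberg adjustment over all 13836 tested genes, threshold 0.05. SE was obtained from the log2 fold change and its F statistic. Ratios within a replicate number are between CPM values and have no test. The procedure was run on simulated counts, drawn independently for each library and so without the shared differences between replicate numbers of these data. Alternatives were DESeq2 1.42.0, limma-voom (limma 3.58.1), other scalings, no filter, a replicate block, and leaving out each library. The members and lists were chosen with earlier results of these data known. All 29 members are named; of each further list, the 2 genes with the smallest p. The cell type markers Lyve1, Cidec, Adipoq, Lep, S100a8 and S100a9 were named after their values were seen. Of the 7 redox partner genes and 17 movement genes listed, 6 and 16 were tested. Genes outside these lists are not reported here.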

Additional observations from a re-analysis of the deposited data

How the results depend on the processing

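Sqle and Insig2 were the called members with DESeq2 size factors in edgeR, with library size alone and with limma-voom. The number of called members was 5 without the low-count filter and 5 with the DESeq2 test, where Idi1, Fdps and Cyp51 were added, and between 2 and 4 when 1 library was left out. The number of called genes over all was 829 with no filter, 574 with DESeq2 and between 460 and 633 when 1 library was left out, against 264. With the replicate number as a block, 13 members (11 higher, 2 lower) and 2729 genes were called; no label ties equal numbers to one animal or day, and deviations from the group means of same-numbered libraries correlated with r = 0.4275 over 13836 genes, which are not independent. The members' median log2 fold change was between 0.16 and 0.20 in all alternatives. Signs turned for 8 members near 0 when 1 library was left out, where the log2 fold changes ranged from -0.30 to 0.73 for Mvd, -0.23 to 0.18 for Fdft1, -0.21 to 0.32 for Tm7sf2, -0.08 to 0.17 for Ebp, -0.17 to 0.26 for Srebf2, -0.38 to 0.02 for Scap, -0.03 to 0.35 for Insig1 and -0.16 to 0.49 for Npc1. The shorter motif CACNCCAC was found for 3 of 22 members, Acat2, Hmgcs1 and Insig1, against 7.63% of tested genes. The causes were not tested. Each member had at least 125 reads in each library.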
